A study of Mus musculus with 3 samples.

Results

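Natural killer (NK) cells and type 1 innate lymphoid cells (ILC1) of the mouse liver were examined in 3 droplet single-cell RNA-seq libraries of radiation-induced liver disease. They numbered 260 of 20950 kept cells. A cell was selected when it held at least 2 unique molecular identifiers (UMIs, each standing for 1 captured transcript molecule) summed over Ncr1, Klrb1c and Klre1. It also had to hold no UMI of Cd3d, Cd3e, Cd3g, Cd79a or Siglech and fewer than 10 UMIs of Lyz2, with under 2% of its UMIs from S100a8 and S100a9. The control library came from the liver of Gsdmd FL/FL mice, in which Gsdmd is floxed, with no irradiation. The irradiated floxed library came from Gsdmd FL/FL mice given 30 Gy, with the liver taken 7 days later. The irradiated ∆Hep library came from Gsdmd∆Hep mice, named for loss of Gsdmd from hepatocytes, under the same dose and time. The genotype label reads WT for both floxed libraries and gsdmd-ko for the third. Each group was 1 library, so no difference between groups could be tested, and every interval below covers counting error only. An unirradiated Gsdmd∆Hep liver was not analysed here. The Cre driver, the floxed exon, and the age, sex, strain and number of the mice are not given in the sources used here.

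NK cells are innate lymphocytes that kill infected or stressed cells with perforin and granzymes and release interferon gamma and chemokines. ILC1 share the T-bet programme and the receptors NKp46 (Ncr1) and NK1.1 (Klrb1c) with NK cells, but reside in the tissue, carry CXCR6, CD49a (Itga1), TRAIL (Tnfsf10) and the IL-7 receptor, and largely lack the transcription factor Eomes. The mouse liver is known for holding both, with circulating-type NK cells maturing from CD27-high to CD11b-high (Itgam) and KLRG1-bearing stages.

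The 3 libraries held 6618, 6780 and 7552 kept cells in the order control, irradiated floxed and irradiated ∆Hep, an order used for every set of 3 values below. Kept cells had a median of 5959, 7521 and 8320 UMIs. Neutrophil markers made up far more of the RNA of the other kept cells after irradiation, at 4865 UMIs per 1000000 UMIs (CPM) in the control library against 181539 and 155236 CPM. Libraries shared 8 to 51 kept barcodes in pairs. No barcode was a selected cell in 2 libraries, and 1 selected control cell had a barcode that was also a kept cell of the irradiated ∆Hep library.

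The selected cells were 159, 28 and 73 in number, with 956593, 158195 and 490849 UMIs in all. Their median depth was 5267, 4884 and 5750 UMIs per cell, and the shallowest held 2256 UMIs. The median mitochondrial share was 2.87%, 2.62% and 2.92%. Depth and mitochondrial share therefore differed little between libraries, whereas the number of cells did: the irradiated floxed sums rest on 28 cells.

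The genes that chose the cells are given as a description. Ncr1, which encodes the activating receptor NKp46, stood at 511, 265 and 381 CPM. Klrb1c, which encodes NK1.1, stood at 514, 436 and 397 CPM. The lectin receptor Klre1 stood at 811, 329 and 289 CPM and was the most uneven of the 3 across libraries. Eomes, named as a marker but not part of the selection, had UMIs in 105, 15 and 47 cells. Cells just inside the threshold, with 2 UMIs of the 3 genes, numbered 2, 1 and 2. Cells just outside, with 1 UMI, numbered 28, 7 and 10. Of those outside, 67.9%, 85.7% and 40% held a UMI of Stab2, an endothelial scavenger receptor, and their Eomes level was 22.1, 16.8 and 44.3 CPM, against 328, 183 and 226 CPM in the selected cells.

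Genes outside the selection were those known for NK cells. Besides the rule genes, the strongest excess over all other kept cells was in Klra8 and Klra4, which encode the activating Ly49H and Ly49D receptors, and in the serpin Serpinb9b. Prf1, encoding perforin, stood at 1005, 367 and 646 CPM against 7.50, 1.04 and 1.07 CPM in the other kept cells. Gzma stood at 8077, 5386 and 7587 CPM against 61.2, 6.81 and 20.8 CPM. Cd8a, Cd8b1 and Cd5 were at 0 UMIs in all 3 libraries, while UMIs of the T cell receptor constant gene Trbc1 were in 80.5%, 85.7% and 80.8% of selected cells. In neutrophils, chosen without UMIs of the rule genes or Cd3 genes, that share was 0.959%, 0.206% and 0.0457%, at median depths of 3613, 10040 and 14316 UMIs. The 5 ILC2 markers Gata3, Il1rl1, Il5, Il13 and Areg summed to 90.9, 101 and 63.2 CPM. They stood at 12.2, 3.98 and 9.76 CPM in the other kept cells and 63.8, 91.3 and 128 CPM in T cells. In the selected cells 2, 1 and 3 of the 5 were detected, and Il5 and Il13 had no UMI in any of the 3 libraries.

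RNA of other cell types was present at low levels and moved with the libraries. The 10 neutrophil markers summed to 45.0, 1625 and 1053 CPM, with 6, 9 and 9 of 10 detected, Ltf at 0 in the irradiated floxed library and Csf3r at 0 in the irradiated ∆Hep library. The 10 hepatocyte markers summed to 505, 468 and 128 CPM, and the 12 macrophage markers to 575, 411 and 297 CPM with Csf1r at 0 in both irradiated libraries. The 10 endothelial markers summed to 1541, 386 and 1245 CPM and were concentrated in few cells. Members with at least 5 UMIs over 9 endothelial genes numbered 12, 1 and 5, had a median of 11889, 8475 and 13185 UMIs, and held 1250 of 1411, 49 of 53 and 517 of 556 of these UMIs. The doublet caller Scrublet marked 5, 0 and 5 selected cells, each of them among these. They stay in the values below.

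The cells were a smaller share of the kept cells in the irradiated libraries. They were 2.40% of kept cells in the control library (95% Clopper-Pearson interval 2.05% to 2.80%), 0.413% in the irradiated floxed library (0.275% to 0.596%) and 0.967% in the irradiated ∆Hep library (0.758% to 1.21%). No 2 of these intervals overlap. The irradiated floxed share was 5.82-fold lower than the control share (3.88 to 9.03), and the irradiated ∆Hep share was 2.34-fold higher than the irradiated floxed share (1.50 to 3.76) and 2.49-fold lower than the control share (1.87 to 3.33). The 3 comparisons share libraries and are not independent of each other.

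**Figure D1:**
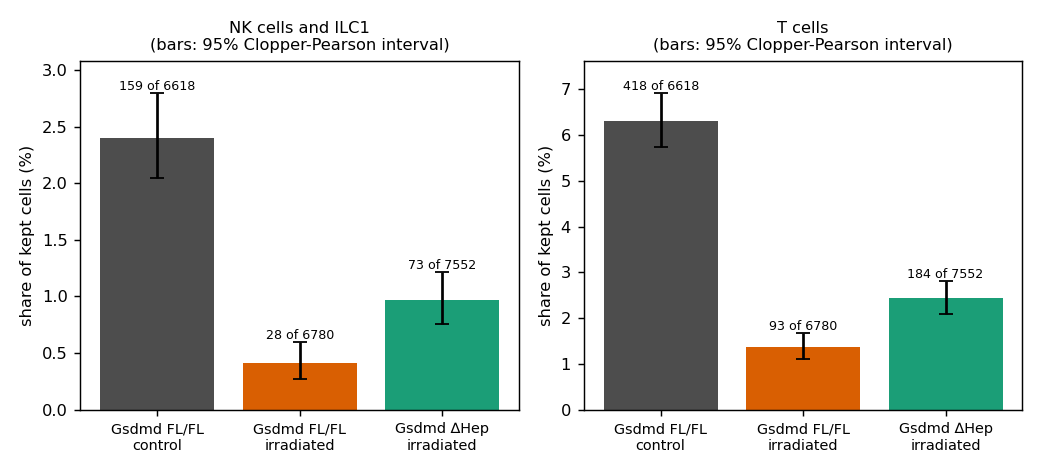
Share of kept cells (%, linear axis from 0) that were NK cells and ILC1 (left) or T cells (right) in each library. Bars give the share, error bars the 95% Clopper-Pearson interval, and the text the cells counted. NK cells and ILC1 stand at 2.40%, 0.413% and 0.967%, in the same order as T cells at 6.32%, 1.37% and 2.44%.

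The size of these differences depends on the denominator. Among kept cells outside neutrophils the shares were 2.58%, 0.668% and 1.39%, and the irradiated floxed share was 3.86-fold lower than the control share (2.57 to 5.99). Among the selected T cells, NK cells and ILC1 together, NK cells and ILC1 were 27.6% (23.9% to 31.4%), 23.1% (16.0% to 31.7%) and 28.4% (22.97% to 34.3%), with overlapping intervals. T cells, chosen by at least 2 UMIs of Cd3 genes and no UMI of the 3 rule genes, numbered 418, 93 and 184. Cells with at least 2 UMIs of the rule genes and a Cd3 UMI, under the same other limits, numbered 163, 11 and 21. They were in neither set, so these shares leave them out.

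Gene levels were compared as sums of UMIs over the selected cells of a library. A gene with at least 20 UMIs over the pair of libraries is called higher or lower when its CPM differed at least 2-fold and the exact 95% interval of the ratio left out 1; a library at 0 was set to 3 UMIs. Between the irradiated floxed and control libraries, 139 of 6004 genes were called higher (2.32%) and 380 lower (6.33%). Between the irradiated ∆Hep and irradiated floxed libraries, 205 of 4063 were called higher (5.05%) and 109 lower (2.68%). Between the irradiated ∆Hep and control libraries, 272 of 6748 were called higher (4.03%) and 664 lower (9.84%). With median-of-ratios size factors the last pair became 419 higher and 407 lower, and the first 171 higher and 283 lower, while with TMM factors the second became 270 higher and 67 lower. The median log2 ratio over all tested genes was -0.16, -0.01 and -0.20 for the 3 pairs, and -0.12, 0.12 and -0.02 with TMM factors.

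Leaving out the cells that held endothelial UMIs gains or ends some calls on genes named below, including the following. Between the floxed libraries Cd226 is 2.07-fold lower (1.05 to 4.66) without them, Itgal 2.17-fold lower (1.54 to 3.13) and Icam1 2.70-fold lower (1.60 to 4.90), each then called, as are Cxcr6 and the rule gene Ncr1. Between the irradiated libraries Prf1 is 2.01-fold higher (1.49 to 2.76) in the irradiated ∆Hep library and then called, and Ccdc88a is called lower. The calls for Zeb2, Irf7 and Mt2 are lost for that pair, with Zeb2 1.94-fold higher (0.981 to 4.28). Between the irradiated ∆Hep and control libraries Ets1 is 2.25-fold lower (1.90 to 2.68) and then called, as is Itga1, while Tnfsf10 is 2.14-fold lower (0.967 to 5.35) and no longer called. Over all genes, without those cells, 106 of 5340 were higher and 338 lower between the floxed libraries. Between the irradiated libraries 158 of 3475 were higher and 98 lower. For irradiated ∆Hep against control, 198 of 5964 were higher and 648 lower. These counts are the background for list counts given below without those cells.

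Within the control library the cells separated into an Eomes side and a Cxcr6 side. Eomes UMIs were in 66.0% of selected cells (58.1% to 73.4%), 53.6% (33.9% to 72.5%) and 64.4% (52.3% to 75.3%) of the 3 libraries, against 0.24%, 0.0411% and 0.0457% of neutrophils. At an equal depth of 2000 UMIs per cell, the expected shares were 41.8%, 30.2% and 33.6%. Cxcr6, encoding the receptor that retains ILC1 in the liver, had UMIs in 19 of 159, 0 of 28 and 3 of 73 cells, that is 11.9% (7.35% to 18.0%), 0% (Clopper-Pearson upper bound 12.3%, and 10.7% as the share of 3 cells) and 4.11% (0.856% to 11.5%). Of the 19 control cells with Cxcr6, 1 held Eomes, whereas 104 of the 140 cells without Cxcr6 did. Of the 19, 10 rest on a single Cxcr6 UMI, so the threshold marks a range rather than a type.

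Genes that were not used for this threshold also differed between these sets of control cells. Il7r, the IL-7 receptor alpha chain, stood at 493 CPM in the cells with Cxcr6 and 15.6 CPM in those without, 31.5-fold higher (95% counting interval 17.2 to 62.5). Tmem176b, a membrane protein gene of ILC1, stood at 429.8 against 30.1 CPM, and Tnfsf10, encoding TRAIL, at 215 against 24.1 CPM. The costimulatory receptor gene Cd226 was 7.39-fold higher (95% counting interval 4.98 to 11.0). These 4 genes were all at the higher level in the cells with Cxcr6. On the NK side, Klra4 had 0 UMIs in the cells with Cxcr6 and 782 CPM in the others, and Klra8 had 0 UMIs against 667 CPM. Prf1 stood at 135 against 1136 CPM, Irf8, a transcription factor of NK maturation, at 127 against 1519 CPM, and Gzma at 2021 against 8992 CPM. Of the 19 cells with Cxcr6, 5 held a UMI of any of 6 Ly49 genes, against 124 of the 140 others. Ccl5 UMIs were in 19 of 19 and 139 of 140 cells. T cells of the control library shared part of the pattern of the cells with Cxcr6: Il7r UMIs were in 80.9% of them, Cxcr6 in 20.1%, Prf1 in 14.8% and Gzma in 2.63%. Trbc2, a T cell receptor constant gene, had UMIs in 9 of the 19 cells with Cxcr6 (47.4%) and 39 of the 140 others (27.9%). The part of T-lineage cells in the contrast was not tested.

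**Figure D2:**
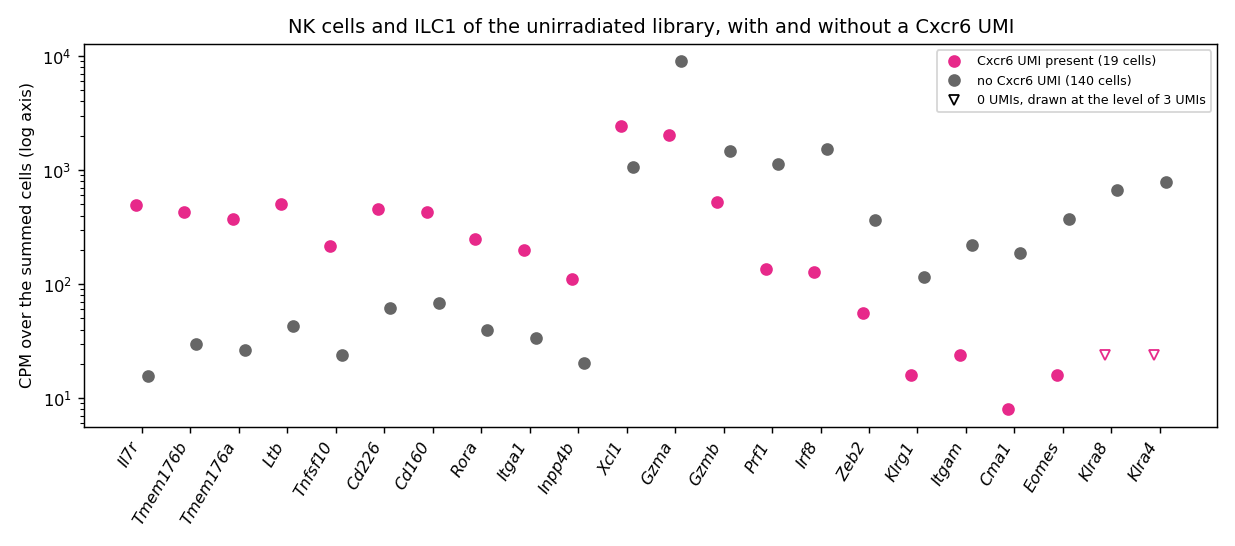
Level (CPM over the summed cells, log axis) of ILC1 and NK genes in the 19 control cells with a Cxcr6 UMI and the 140 without. Points are sums over cells of 1 library; open triangles mark 0 UMIs, drawn at the level of 3 UMIs. Genes from Il7r to Inpp4b lie higher in the cells with Cxcr6, and genes from Gzma to Klra4 lie higher in the others.

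The irradiated libraries held too few Cxcr6-bearing cells for the same contrast. Cells with UMIs of Cxcr6 or Itga1 and none of Eomes were 22 of 159 (13.8%, 8.88% to 20.2%), 1 of 28 (3.57%, 0.0904% to 18.3%) and 3 of 73 (4.11%, 0.856% to 11.5%). With 6 ILC1 genes, which add Tmem176a, Tmem176b, Cd200r1 and Zfp683, they were 30 of 159 (18.9%), 6 of 28 (21.4%) and 6 of 73 (8.22%). By that choice the irradiated floxed share was not below the control share. Itga1, also an endothelial gene, had its 4 UMIs of the irradiated floxed library in 1 cell, which was among the cells with endothelial UMIs. Of the 12 genes listed for liver ILC1, 10 could be compared between the irradiated floxed and control libraries: 1 was called higher and 3 lower, with a median log2 ratio of -1.02. Over all genes 2.32% were higher and 6.33% lower, with a median of -0.16. Between the irradiated ∆Hep and control libraries 4 of 11 were called lower and 0 higher, with a median of -0.79, where 9.84% of all genes were lower and the median was -0.20. Tnfsf10 stood at 49.1, 0 and 16.3 CPM, at least 2.59-fold lower in the irradiated floxed library than in the control. Cxcr6 stood at 36.6, 0 and 10.2 CPM, and the irradiated ∆Hep level was 3.59-fold lower (95% counting interval 1.40 to 11.7) than the control. Il7r went the other way at 78.4, 164 and 114 CPM, 2.10-fold higher (95% counting interval 1.29 to 3.31) in the irradiated floxed library. In that library its UMIs lay in 1 of 15 cells with Eomes and 6 of 13 without. Trbc2 UMIs lay in 2 of those 15 and 9 of those 13, and Il7r UMIs were in 92.5% of T cells of that library; the part of T-lineage cells was not tested.

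The genes of late NK maturation were at their highest in the control library. Klrg1, an inhibitory receptor of terminally matured cells, stood at 102, 6.32 and 22.4 CPM, with UMIs in 48, 1 and 9 cells. Both irradiated libraries lay below the control interval of 83.2 to 125 CPM, and the irradiated ∆Hep level was 4.57-fold lower (95% counting interval 2.45 to 9.46). Zeb2, the transcription factor that drives terminal maturation, stood at 325, 63.2 and 139 CPM. It was 5.14-fold lower (95% counting interval 2.76 to 10.8) in the irradiated floxed library than in the control, and 2.35-fold lower (95% counting interval 1.80 to 3.10) in the irradiated ∆Hep library. Itgam, encoding CD11b, stood at 195, 56.9 and 42.8 CPM, with UMIs in 86, 5 and 18 cells, and was 3.44-fold lower (95% counting interval 1.77 to 7.63) in the irradiated floxed library and 4.57-fold lower (95% counting interval 2.90 to 7.56) in the irradiated ∆Hep library. The mast cell protease gene Cma1, a known transcript of mature NK cells, stood at 163, 19.0 and 36.7 CPM, 8.60-fold lower (95% counting interval 2.89 to 42.2) and 4.45-fold lower (95% counting interval 2.72 to 7.70) in the same order. The control levels of these 4 genes stood apart from both irradiated libraries, with no overlap of intervals.

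Receptors that guide mature NK cells through the blood were also low. Cx3cr1, the fractalkine receptor, had UMIs in 15, 0 and 1 cells and stood at 38.7, 0 and 4.07 CPM, and S1pr5, which lets NK cells leave lymph nodes and marrow, stood at 46.0, 12.6 and 12.2 CPM with UMIs in 35, 2 and 5 cells. Of the 18 genes listed for circulating-type NK cells, 7 of 18 were called lower and 0 higher in the irradiated floxed library against the control, with a median log2 ratio of -0.83, beside 6.33% lower and a median of -0.16 over all genes. In the irradiated ∆Hep library 6 of 18 were lower and 1, Gzmb, was higher, beside 9.84% lower over all genes. In T cells 4 of 11 were called lower and 0 higher for the first pair, and 2 lower and 1 higher for the second. Their median log2 ratios there were -0.58 and -0.33, beside 0.01 and 0.03 over all genes in T cells. Itgam and Zeb2 UMIs were also in 97.5% and 23.9% of neutrophils of the irradiated floxed library, and in 17.9% and 25% of its selected cells.

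Ly49 receptors are among those by which mouse NK cells read MHC class I and related ligands. Klra4 stood at 679, 563 and 544 CPM, Klra8 at 579, 506 and 365 CPM and Klra9, encoding inhibitory Ly49I, at 280.2, 228 and 220.0 CPM. None of the 6 Ly49 genes Klra1, Klra3, Klra4, Klra7, Klra8 and Klra9 was called in any of the 3 comparisons; these genes are close paralogs whose UMIs the counting could have split. UMIs of 2 or more of them were in 67.9%, 64.3% and 67.1% of cells, and of none in 18.9%, 21.4% and 17.8%. Klrk1, encoding the activating receptor NKG2D, stood at 610.5, 651 and 693 CPM, and Klrc1, encoding inhibitory NKG2A, at 298, 291 and 324 CPM, neither of them called. The adaptor genes Fcer1g and Tyrobp stood at 2067, 1574 and 1320.2 CPM and 2144, 1517 and 1375 CPM. Of the inhibitory receptors, 3 of 12 were called lower in the irradiated floxed library against the control, where the background was 6.33%. One of them, Klre1, was used to select the cells, and the others were Klrg1 and Cd96. Cd96, a receptor for nectin-family ligands, stood at 46.0, 0 and 30.6 CPM, at least 2.43-fold lower in the irradiated floxed library than in the control. Among activating receptors, Slamf7, which supports NK activation, stood at 89.9, 25.3 and 57.0 CPM and Cd226 at 113, 56.9 and 44.8 CPM.

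**Figure D3:**
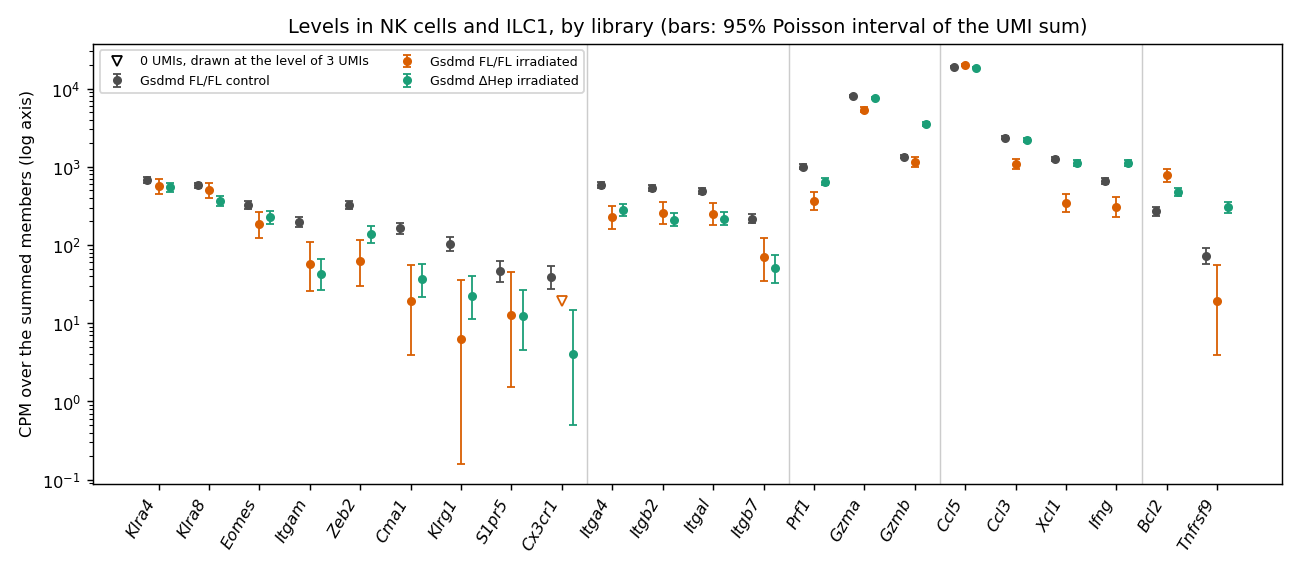
Level (CPM over the summed cells, log axis) of 22 genes in NK cells and ILC1 of the 3 libraries, with 95% Poisson intervals of the UMI sum. From left to right stand maturation and Ly49 genes, integrins, killing genes, cytokines and chemokines, and Bcl2 with Tnfrsf9. Control points lie above both irradiated libraries from Itgam to Cx3cr1 and across the integrins, and the irradiated ∆Hep point lies highest for Gzmb, Ifng and Tnfrsf9.

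Some integrins, which carry adhesion to endothelium and matrix, were lower in both irradiated libraries, and others were not called. Itga4, the alpha chain of VLA-4, stood at 588, 228 and 283 CPM, 2.58-fold lower (95% counting interval 1.84 to 3.72) in the irradiated floxed library and 2.07-fold lower (95% counting interval 1.72 to 2.52) in the irradiated ∆Hep library. Itgb2, the shared beta chain of LFA-1 and CD11b, stood at 542, 259 and 212 CPM, 2.09-fold lower (95% counting interval 1.52 to 2.95) and 2.56-fold lower (95% counting interval 2.07 to 3.19). Itgb7 stood at 217, 69.5 and 50.9 CPM, and Itgal, the LFA-1 alpha chain, at 492, 253 and 218 CPM, not called between the floxed libraries. Itga2, encoding the NK integrin CD49b, stood at 131, 114 and 89.6 CPM, with UMIs in 73, 9 and 27 cells, and Itgb1 at 431, 303 and 238 CPM, with no pair called for either. The control level of Itga4, Itgb2, Itgb7 and Itgal was highest, with no overlap with the interval of either irradiated library. With TMM or median-of-ratios factors Itga4 no longer differed 2-fold between the irradiated ∆Hep and control libraries, and with median-of-ratios factors neither did Itgal for that pair nor Itgb2 between the floxed libraries. Of the 23 trafficking genes listed, 5 of 21 were called lower in the irradiated floxed library and 8 of 21 in the irradiated ∆Hep library against the control, and none higher in either. The background was 6.33% and 9.84% lower, and without the cells that held endothelial UMIs the counts were 7 and 11 of 21. In T cells 5 of 20 and 3 of 20 trafficking genes were called lower for the same pairs, and none higher. Their median log2 ratios there were -0.23 and -0.43, beside 0.01 and 0.03 over all genes in T cells. Ccr2, the receptor for the monocyte chemoattractant CCL2, stood at 214, 259 and 110.0 CPM, called lower in the irradiated ∆Hep library only against the irradiated floxed library. Cxcr4, a receptor that retains cells in the marrow, stood at 293, 354 and 196 CPM, with no pair called.

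The lineage transcription factor gene Eomes stood at 328, 183 and 226 CPM and Tbx21, encoding T-bet, at 186, 158 and 132 CPM, neither called in any pair. Irf8 stood at 1336, 664 and 1121 CPM, 2.01-fold lower (95% counting interval 1.65 to 2.48) in the irradiated floxed library than in the control, a call that TMM and median-of-ratios factors ended. Ets1, needed for NK development, stood at 862, 405 and 471 CPM, a call between the floxed libraries that median-of-ratios factors ended, and Bhlhe40, a regulator of cytokine output, at 975, 392 and 744 CPM. Of the 20 factors listed, 5 of 19 were called lower and none higher in the irradiated floxed library against the control, and 4 of 19 were lower in the irradiated ∆Hep library. The background was 6.33% and 9.84%, and without the cells that held endothelial UMIs the second count was 6 of 19.

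Of the 14 killing genes compared between the irradiated libraries, Gzmb and Stx11 were called and 12 were not. Gzmb, encoding the apoptosis-inducing protease granzyme B, stood at 1353, 1157 and 3518 CPM. The irradiated ∆Hep level was 3.04-fold higher (95% counting interval 2.61 to 3.56) than the irradiated floxed level and 2.60-fold higher (95% counting interval 2.42 to 2.80) than the control level, while the floxed libraries had overlapping intervals. Its median over single cells was 854, 896 and 3272 CPM, and UMIs were in 86.8%, 82.1% and 91.8% of cells, so the median cell was higher in the irradiated ∆Hep library as well as the sum. Prf1, encoding the pore-forming protein that admits granzymes, stood at 1005, 367 and 646 CPM. It was lowest in the irradiated floxed library, 2.74-fold lower (95% counting interval 2.10 to 3.64) than in the control. Gzma stood at 8077, 5386 and 7587 CPM, with no pair called. Stx11, a syntaxin of granule release, stood at 43.9, 19.0 and 69.3 CPM, 3.65-fold higher (95% counting interval 1.15 to 18.6) in the irradiated ∆Hep than in the irradiated floxed library. The death ligand gene Fasl stood at 146, 101 and 126 CPM, with no pair called. Of the 19 killing genes, 3 of 16 were lower in the irradiated floxed library against the control and 2 of 14 were higher in the irradiated ∆Hep library against the irradiated floxed one. The background was 6.33% lower for the first pair and 5.05% higher for the second, and without the cells that held endothelial UMIs the second count was 3 of 14.

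Several cytokine and chemokine genes were lowest in the irradiated floxed library. Ifng, encoding interferon gamma, stood at 656, 309.7 and 1123 CPM, 3.62-fold higher (95% counting interval 2.70 to 4.96) in the irradiated ∆Hep than in the irradiated floxed library. Its UMIs were in 67.9%, 57.1% and 87.7% of cells. Against the control, the irradiated floxed level was 2.12-fold lower (95% counting interval 1.58 to 2.90). That call was lost with median-of-ratios factors and without the cells that held endothelial UMIs, where the level was 1.95-fold lower (1.46 to 2.67). Ccl3, an inflammatory chemokine gene, stood at 2353, 1099.9 and 2212 CPM, 2.14-fold lower (95% counting interval 1.83 to 2.51) in the irradiated floxed library than in the control and 2.01-fold higher (95% counting interval 1.71 to 2.37) in the irradiated ∆Hep library than in the irradiated floxed one. Xcl1, which attracts cross-presenting dendritic cells, stood at 1254, 348 and 1131 CPM, 3.61-fold lower (95% counting interval 2.75 to 4.82) and 3.25-fold higher (95% counting interval 2.46 to 4.37). For Ccl3 and Xcl1 the irradiated floxed library lay below both others, and those 2 differed by less than 2-fold. Ccl5 UMIs were in 158 of 159, 28 of 28 and 73 of 73 cells, at 19006, 19925 and 18586 CPM, and Ccl4 stood at 7540.3, 4937 and 5224 CPM, neither called. Among the 10 listed genes that could be compared, 4 were higher and none lower in the irradiated ∆Hep against the irradiated floxed library, with a median log2 ratio of 1.01 beside 5.05% higher and a median of -0.01 over all genes.

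**Figure D4:**
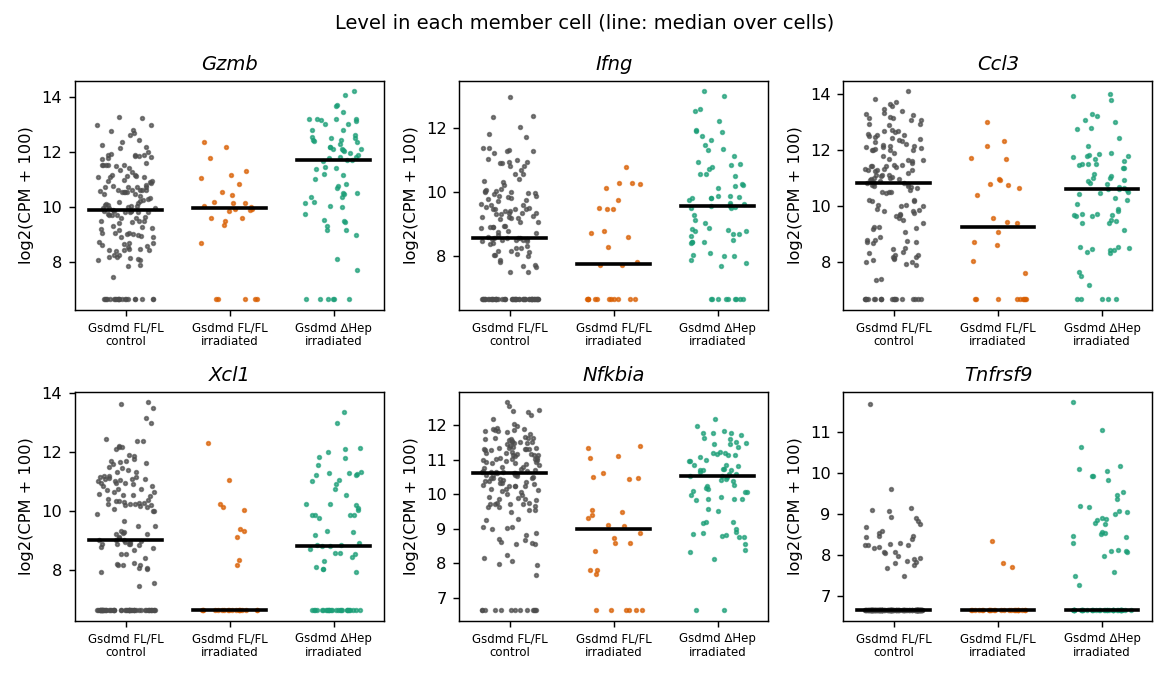
Level of 6 genes in each selected cell, as log2(CPM + 100), by library. Each point is 1 cell and the black line the median over the cells of a library; points on the lowest row have no UMI. The median Gzmb level is highest in the irradiated ∆Hep library, and for Ifng, Ccl3, Xcl1 and Nfkbia the irradiated floxed median is the lowest of the 3.

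Most listed genes of the NF-κB pathway were lower in the irradiated floxed library than in the control and irradiated ∆Hep libraries. NF-κB is a family of transcription factors released when its inhibitor IκBα is degraded, and it induces that inhibitor and its own subunits in return. Of the 13 genes listed, all measured, 7 were called lower and 0 higher in the irradiated floxed library against the control, where the background was 6.33% lower. Against the irradiated floxed library, 9 of 13 were called higher and 0 lower in the irradiated ∆Hep library, where the background was 5.05% higher. The median log2 ratios were -1.18 and 1.31, beside -0.16 and -0.01 over all genes. Both comparisons use the irradiated floxed library, so a low value there enters both. Between the irradiated ∆Hep and control libraries 2 of 13 were called higher and 0 lower, beside 4.03% and 9.84% over all genes. For that pair 8 ratios lay above 1 and 5 below.

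Nfkbia, encoding IκBα, stood at 1553, 664 and 1467 CPM, with UMIs in 146, 22 and 71 cells. The irradiated floxed library lay below the others, 2.34-fold lower (95% counting interval 1.92 to 2.88) than the control, and the irradiated ∆Hep level was 2.21-fold higher (95% counting interval 1.80 to 2.74) than it. The subunit genes Nfkb1 and Nfkb2 stood at 214, 75.9 and 196 CPM and 67.9, 19.0 and 79.5 CPM, each lowest in the irradiated floxed library. Traf1, an adaptor of TNF receptors and an NF-κB target, stood at 244, 101 and 429.9 CPM, 4.25-fold higher (95% counting interval 2.56 to 7.57) in the irradiated ∆Hep than in the irradiated floxed library. Icam1, the ligand of LFA-1, stood at 248, 145 and 487 CPM, 3.35-fold higher (95% counting interval 2.18 to 5.39) for that pair. The atypical inhibitor gene Bcl3 stood at 15.7, 37.9 and 139 CPM, and the subunit gene Relb at 51.2, 44.2 and 116 CPM, both highest in the irradiated ∆Hep library and called higher there than in either floxed library. Tnfaip3, encoding the feedback enzyme A20, stood at 1556, 683 and 845 CPM, 2.28-fold lower (95% counting interval 1.87 to 2.80) in the irradiated floxed library and not called between the irradiated libraries. Leaving out the cells with endothelial UMIs gave 9 of 12 lower and 9 of 13 higher for the same pairs. Over all genes 338 of 5340 were then lower and 158 of 3475 higher.

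**Figure D5:**
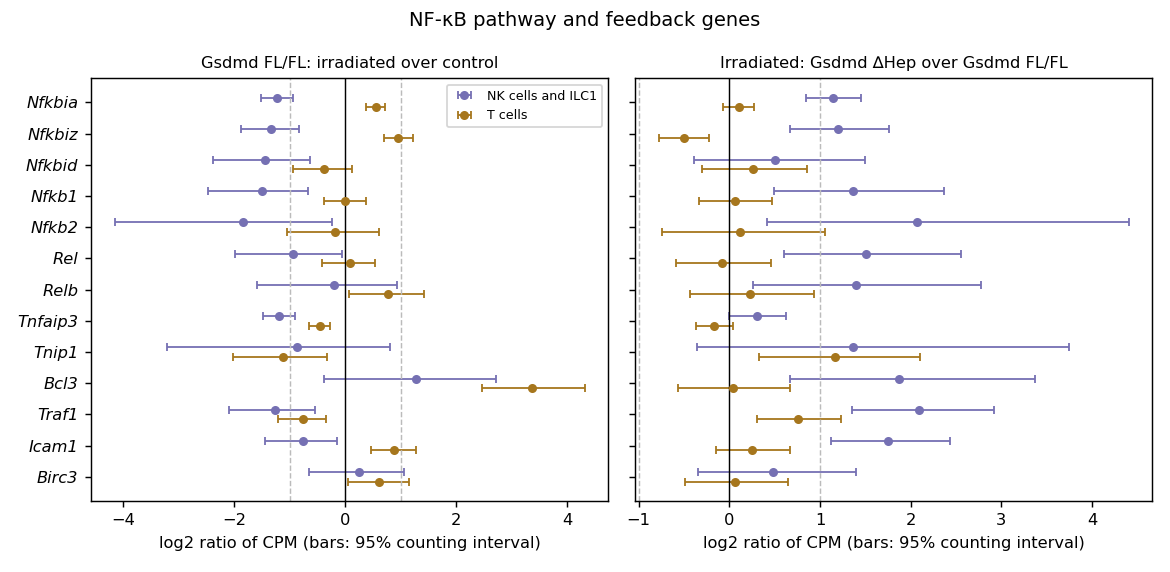
Log2 ratio of CPM for the 13 NF-κB genes, irradiated over control Gsdmd FL/FL (left) and Gsdmd∆Hep over Gsdmd FL/FL among irradiated livers (right), in NK cells and ILC1 (violet) and T cells (brown). Points give the ratio and bars the 95% counting interval; dashed lines mark 2-fold. On the left 7 violet points with intervals below 0 lie past 2-fold lower, and on the right 9 lie past 2-fold higher.

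T cells of the same libraries did not show this order. In them 1 of 13 NF-κB genes was called higher and 1 lower in the irradiated floxed library against the control, with a median log2 ratio of 0.09. Between the irradiated libraries 1 of 13 was higher, with a median of 0.09. The Nfkbia level in T cells was 452, 661 and 709.8 CPM, a ratio of 1.46 (1.30 to 1.64) for the irradiated floxed over the control library, where NK cells and ILC1 had the opposite sign. With 1 library per group the difference between the cell types could not be tested over samples.

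The promoter of Nfkbia is shown because this gene has the deepest counts among those of the list called in both comparisons, and because it carries the letters of a canonical κB site. RefSeq promoters, on GRCm38.p6, were matched for 10 of the 13 genes. A strict form of the κB pattern, GGGA, any base and then TTTCC, was searched on both strands of the 250 bases before each listed start. Looser κB forms were not searched, so a gene without a match may still carry such a site. The strict form was in 117 of 32851 promoters (0.356%), those of 112 of 27025 genes (0.414%). It was in those of 2 of the 10 genes. In Nfkbia it lies 19 bases before the start, counted from its last base, at chr12:55492667-55492676, on the strand opposite to the gene. The window chr12:55492648-55492897, minus strand, reads as follows 5′ to 3′, with the match in capitals.
Nfkbia promoter: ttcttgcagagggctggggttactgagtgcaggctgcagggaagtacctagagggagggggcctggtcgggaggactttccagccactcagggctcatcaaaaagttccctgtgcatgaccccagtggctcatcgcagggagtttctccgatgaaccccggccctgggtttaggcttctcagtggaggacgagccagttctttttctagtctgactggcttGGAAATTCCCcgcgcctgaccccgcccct
In Nfkb2 the match GGGACTTTCC lies at chr19:46305705-46305714, 215 bases before the last of its 3 listed starts. A match is a description of the letters and not a measured binding site.

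Activation genes split by class. Tnfrsf9, encoding the costimulatory receptor 4-1BB, stood at 73.2, 19.0 and 304 CPM, with UMIs in 35, 3 and 36 cells. The irradiated ∆Hep level was 16.0-fold higher (95% counting interval 5.37 to 78.5) than the irradiated floxed level and 4.15-fold higher (95% counting interval 3.10 to 5.59) than the control level. Crtam, an adhesion receptor of activated killer cells, stood at 10.5, 37.9 and 116 CPM and Il2ra, the high-affinity IL-2 receptor chain, at 16.7, 12.6 and 55.0 CPM, both highest in the irradiated ∆Hep library. The inhibitory receptor gene Lilrb4a stood at 18.8, 6.32 and 48.9 CPM, with UMIs in 14, 1 and 15 cells. The growth regulator Myc stood at 129, 177 and 271 CPM, 2.11-fold higher (95% counting interval 1.64 to 2.72) in the irradiated ∆Hep library than in the control. The orphan nuclear receptors induced by receptor signalling went the other way. Nr4a1 stood at 1289, 480.4 and 607 CPM, Nr4a2 at 560.3, 234 and 224 CPM and Nr4a3 at 307, 50.6 and 87.6 CPM, each highest in the control library and called lower in both irradiated libraries. For Nr4a1 the call between the irradiated ∆Hep and control libraries was lost under TMM and median-of-ratios factors and without the cells that held endothelial UMIs.

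Among cytokine receptors, Il2rb, the shared IL-2 and IL-15 receptor chain on which NK survival depends, stood at 1250.3, 1397 and 1086 CPM, and Il18r1 at 185, 152 and 175 CPM, neither called. Of 21 receptor genes listed, 1 of 17, Il7r, was higher and none lower in the irradiated floxed library against the control, where 2.32% and 6.33% of all genes were. In the irradiated ∆Hep library against the control 1 of 18, Il2ra, was higher and 3 were lower, beside 4.03% and 9.84%. Il21r had UMIs in 24, 3 and 0 cells and was at least 7.35-fold lower in the irradiated ∆Hep library than in the control. Of 16 genes listed for JAK-STAT signalling, 3 of 12, Tyk2, Pim1 and Pim2, were higher and none lower in the irradiated ∆Hep against the irradiated floxed library, beside 5.05% higher over all genes. Pim2, a survival kinase induced by cytokines, stood at 42.9, 107 and 249 CPM and was called in all 3 pairs, 5.80-fold higher (95% counting interval 4.04 to 8.48) in the irradiated ∆Hep library than in the control. Pim1 stood at 1239.8, 739.6 and 1650.2 CPM. The JAK kinase gene Tyk2 stood at 77.4, 12.6 and 55.0 CPM, lowest in the irradiated floxed library with 2 UMIs.

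Among survival genes, Bcl2 was highest in the irradiated floxed library. Bcl2, the anti-apoptotic gene that IL-15 maintains in NK cells, stood at 269.7, 778 and 477 CPM, with UMIs in 71.7%, 96.4% and 87.7% of cells. It was 2.88-fold higher (95% counting interval 2.31 to 3.59) in the irradiated floxed library than in the control, and the 3 intervals did not overlap. Its median over single cells was 199.8, 739 and 467 CPM. In T cells Bcl2 stood at 326, 624 and 527 CPM, with no pair called. Bcl2l1, encoding BCL-XL, stood at 36.6, 107 and 93.7 CPM, called higher in both irradiated libraries over all cells and in neither without those that held endothelial UMIs. Mcl1 stood at 284, 297 and 344 CPM, with no pair called. The pro-apoptotic Bax, also a p53 target, stood at 136, 240.2 and 299 CPM, 2.20-fold higher (95% counting interval 1.73 to 2.81) in the irradiated ∆Hep library than in the control.

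Targets of p53, the transcription factor that DNA damage activates, were partly higher. Of the 30 listed, 1 of 14 was called higher and 1 lower in the irradiated floxed library, and 6 of 20 higher and 1 lower in the irradiated ∆Hep library, both against the control. The background was 2.32% higher and 6.33% lower for the first pair and 4.03% and 9.84% for the second. The 6 were Cdkn1a, Phlda3, Bax, Fas, Sesn2 and Aen. Without the cells that held endothelial UMIs, 2 of 15 were higher, Bax and Fas. Cdkn1a, the cell cycle inhibitor p21, stood at 88.9, 152 and 312 CPM over all cells and 96.5, 73.5 and 191 CPM without them. Phlda3 stood at 0, 6.32 and 42.8 CPM and 0, 6.68 and 30.7 CPM in the same way. In T cells Cdkn1a stood at 27.2, 112 and 153 CPM, called higher in both irradiated libraries against the control.

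Gsdmd, which encodes the pore-forming protein of pyroptosis and is the targeted gene, is given for each library. Its UMIs in selected cells were 45, 1 and 12, in 39, 1 and 9 cells, at 47.0, 6.32 and 24.4 CPM. The 1 UMI of the irradiated floxed library, a floxed group, gave the lowest of the levels. The deletion is named for hepatocytes and a 3′ tag can lie outside the deleted part, so these values do not check the genotype. Casp4, encoding caspase-11, which cleaves gasdermin D, stood at 62.7, 12.6 and 104 CPM, 8.22-fold higher (95% counting interval 2.16 to 69.7) in the irradiated ∆Hep than in the irradiated floxed library. Pycard, the inflammasome adaptor ASC, stood at 293, 114 and 145 CPM, and the DNA sensor Aim2 at 10.5, 69.5 and 44.8 CPM. Pycard was highest and Aim2 lowest in the control library.

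Of 33 interferon-stimulated genes listed, 9 of 21 were called lower and none higher in the irradiated ∆Hep library against the control, where the background was 9.84% lower. Several rest on a few cells. Ifit1, an antiviral RNA-binding protein, had 100, 37 and 4 UMIs in 18, 1 and 3 cells, so that its level of 105, 234 and 8.15 CPM was set in the irradiated floxed library by 1 cell. Isg15 stood at 226, 101 and 93.7 CPM and Irf7 at 111, 69.5 and 28.5 CPM, both highest in the control library. Without the cells that held endothelial UMIs, 4 of 17 were lower in the irradiated ∆Hep library, and Isg15 stood at 169.9, 107 and 109 CPM. In T cells 6 of 30 interferon-stimulated genes were called lower and 1 higher in the irradiated ∆Hep library against the control. The median log2 ratio there was -0.60, beside 0.03 over all genes in T cells and -0.98 for the list in NK cells and ILC1. In the control cells with Cxcr6, Isg15 stood at 637 CPM against 164 CPM in the others. Interferon-induced GTPase genes were higher in the irradiated ∆Hep than in the irradiated floxed library in 2 of 4 cases (background 5.05%), Gbp4 at 79.4, 50.6 and 134 CPM and Igtp at 25.1, 6.32 and 40.7 CPM. The class I genes H2-K1 and B2m stood at 3132, 1839.5 and 2378 CPM and 3469.6, 2453 and 2976 CPM, with no pair called.

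Dividing cells were few and were not seen in the irradiated floxed library. Cells with at least 5 UMIs over 9 mitotic genes numbered 5 of 159 (3.14%, 1.03% to 7.19%), 0 of 28 (0%, upper bound 12.3%, and 10.7% as the share of 3 cells) and 2 of 73 (2.74%, 0.334% to 9.55%). Those 2 cells held 176 of the 187 mitotic UMIs of the irradiated ∆Hep library. The proliferation list, with 7 of 10 genes higher in the irradiated ∆Hep than in the irradiated floxed library (background 5.05%), therefore describes few cells. Mki67 UMIs were in 9, 0 and 4 cells. In T cells the same threshold held 2.15%, 2.15% and 7.61% of cells.

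Of 19 immediate early and heat shock genes, 1 of 18 was called higher and 2 lower in the irradiated floxed library against the control, with a median log2 ratio of -0.28. In the irradiated ∆Hep library 3 of 18 were higher and 2 lower, with a median of -0.09. The background was 2.32% higher and 6.33% lower for the first pair and 4.03% and 9.84% for the second. Hspa1a, an inducible heat shock gene with the near-identical copy Hspa1b, stood at 33.5, 405 and 585 CPM, with UMIs in 16, 10 and 21 cells, 12.1-fold higher (95% counting interval 7.79 to 19.1) in the irradiated floxed library and 17.5-fold higher (95% counting interval 12.1 to 26.0) in the irradiated ∆Hep library than in the control. In T cells it was also called higher in both, at 75.7, 240.0 and 658 CPM. Egr1 and Fosb, immediate early genes, stood at 303, 120.1 and 83.5 CPM and 1203, 613 and 552 CPM, highest in the control library. Fos stood at 900.1, 910.3 and 874 CPM and Jun at 950.2, 1068 and 915 CPM, with no pair called. Mt1, a metallothionein that binds zinc, stood at 62.7, 619 and 1512 CPM and Mt2 at 3.14, 196 and 552 CPM. In the other kept cells Mt1 stood at 442, 4603 and 5443 CPM and Mt2 at 89.3, 1629.8 and 2056 CPM, so their levels there were higher than in the selected cells in every library and highest after irradiation as well. Cells with endothelial UMIs held 677 of the 742 Mt1 UMIs of the irradiated ∆Hep library and 70 of the 98 of the irradiated floxed library. Without them Mt1 stood at 31.8, 187 and 153 CPM, and the order of the irradiated libraries turned.

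The genes with the most extreme ratios, chosen by rank, were mostly of low count. In the irradiated floxed library against the control they included, on the lower side, Vsir, encoding the checkpoint receptor VISTA, at 62.7, 0 and 28.5 CPM, at least 3.31-fold lower, and the arrestin-domain gene Arrdc3 at 141, 6.32 and 24.4 CPM. On the higher side stood Ccdc88a, an actin-binding protein, at 16.7, 126 and 65.2 CPM, 7.56-fold higher (95% counting interval 3.72 to 15.6), with UMIs in 13, 7 and 18 cells. Cxcl1, at 7.32, 133 and 10.2 CPM, had 20 of its 21 UMIs of that library in 1 cell. The serpin gene Serpine2 stood at 3.14, 19.0 and 91.7 CPM and was 29.2-fold higher (95% counting interval 9.38 to 147) in the irradiated ∆Hep library than in the control, in 22 cells. Among genes lower in the irradiated ∆Hep than in the irradiated floxed library were the GTPase regulator Arhgef18 at 102, 82.2 and 18.3 CPM and the golgin gene Golgb1 at 43.9, 120.1 and 24.4 CPM.

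Several of the ranked genes are transcripts of hepatocytes. Saa2, an acute-phase protein gene, stood at 3.14, 0 and 104 CPM in the selected cells and 14.7, 20.2 and 99.7 CPM in the other kept cells. Mup3, a major urinary protein gene, stood at 60.6, 0 and 0 CPM and 226, 7.99 and 1.14 CPM, and Hpx, encoding the haem carrier hemopexin, at 12.5, 126 and 50.9 CPM and 70.0, 115 and 61.4 CPM. For Saa2, Mup3 and Hpx the library with the highest level was the same in both sets of cells. Whether these UMIs came from free RNA was not tested.

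With each cell thinned to 2000 UMIs, 860 genes had a mean of at least 0.25 UMIs in both the control and irradiated ∆Hep libraries, with a median variance-to-mean ratio of 1.04 by the lower of the pair. Ccl5 stood at 13.3 in the control and 17.7 in the irradiated ∆Hep library, and Ccl4 at 14.2 and 11.8. These chemokine genes stood highest by the lower of the pair. Gzma followed at 9.72 and 11.2, and Ccl3 at 8.17 and 10.1. Next came the heat shock gene Hspa1b, with its near-identical copy Hspa1a, at 24.4 and 7.94, the interferon-induced chemokine gene Cxcl10 at 8.33 and 6.86, and the nuclear RNA Malat1 at 15.4 and 6.85. Then came Xcl1 at 7.82 and 5.76 and Gzmb at 5.41 and 9.74. The single-cell level of Ifng ranged from 0 CPM to 7862, 1651 and 8967 CPM in the 3 libraries, around medians of 279, 117 and 666 CPM.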

How the data were processed

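Droplet single-cell RNA-seq of mouse liver was made with 10x Chromium 3′ reagents, per the labels' protocols. The deposited matrices hold raw UMI counts per gene and barcode, made with Cell Ranger 6.1.1 per the file headers. The submitters' processing notes also name CASAVA 1.8, Seurat 4.0.3 and the build mm10, with no annotation release named there. No count was normalized by the authors before deposit, as far as the file headers show. The 3 files list 31253 genes.

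Barcodes with at least 500 UMIs, 250 genes and at most 25% mitochondrial UMIs were kept, and the selection given in the report was applied to raw counts. UMIs were summed over the selected cells of a library and given as CPM of their total. Levels carry exact Poisson intervals, shares Clopper-Pearson intervals and ratios exact conditional intervals, all at 95% and for counting error only, since each group is 1 library. No p-value was computed. A library at 0 was set to a floor of 3 UMIs, and log2 ratios carry a prior of 0.5 UMIs. The calling rule was also run on simulated counts, with no outcome given here. Neutrophils were kept cells with at least 2% of UMIs from S100a8 and S100a9. Where the share of neutrophils with a UMI of a gene is given, they also held no UMI of the rule genes or of Cd3d, Cd3e and Cd3g. Doublets were marked per library with Scrublet in scanpy 1.11.5 and kept. TMM factors came from edgeR 4.0.16, and other steps used Python 3.11.15, numpy 2.4.6, scipy 1.17.1 and pandas 2.3.3. Motifs were searched in RefSeq promoters.

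The members and the gene lists were chosen with earlier results of these data known. Genes named were the selection genes and markers, Gsdmd, list members, and, per comparison and direction, the 10 called genes with the most extreme ratios. That ranking left out genes of mitochondria, ribosomes, red cells, antigen receptors and the sex chromosomes, unnamed genes, markers of other cell types, and genes under 0.25 times their level in the other kept cells. Genes given only for variation between cells were taken from the top of that ranking. Alternatives covered doublets, cell filters, the selection, the UMI minimum, scaling and cell weights. Leaving out cells with endothelial UMIs, and Cxcr6 alone as the ILC1 gene, were chosen after seeing the data.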

Additional observations from a re-analysis of the deposited data

Results flagged for a closer look

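For 7 genes the ratio between a pair of libraries was called in opposite directions in NK cells and ILC1 and in T cells. Only list genes, without the markers of other cell types, and the ranked genes were scanned. The number of genes called in both sets of cells was not counted, so the 7 have no background share. With 1 library per group the difference between the cell types was not tested. Values are log2 ratios, first in NK cells and ILC1 and then in T cells. Between the irradiated floxed and control libraries, Rora, a transcription factor of innate and T helper cells, stood at -1.61 and 1.23. Casp4, encoding caspase-11, stood at -2.00 and 1.80, on 60, 2 and 51 UMIs in NK cells and ILC1. Ifit1 stood at 1.17 and -2.28, with all 37 UMIs of the irradiated floxed library in 1 NK cell or ILC1. The chromatin reader gene Brd3 stood at 1.41 and -1.03. Between the irradiated libraries, the chemokine gene Cxcl1 stood at -3.60 and 3.66, and 20 of its 21 UMIs in the irradiated floxed NK cells and ILC1 were in 1 cell that held endothelial UMIs. Between the irradiated ∆Hep and control libraries, Tmem176a stood at -1.30 and 2.08, and Pmaip1, the p53 target encoding NOXA, at -1.22 and 1.44.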

How the results depend on the processing

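No paired analysis was possible because each group is 1 library. Of the values recomputed, 25 of 30 for shares, 38 of 56 for counts of called genes, 300 of 308 for list medians and 24 of 30 for the Eomes and ILC1 gene split stayed within their limits. Of 1477 values for single genes, 1412 stayed within their limits, 60 moved outside them and 5 turned in sign. The 1412 include 155 with a minimum of 10 UMIs and 119 with a minimum of 50, where a gene's ratio cannot change. The filter of 1000 UMIs, 500 genes and 10% mitochondrial UMIs kept all 28 irradiated floxed and 73 irradiated ∆Hep cells. Ratios of that pair could not change under it either. The tally for single genes is therefore not a measure of stability, and the limits are not defined here. The cause of each change below was not tested, except that stricter minimums and thinning leave fewer genes to compare.

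Leaving out members with any UMI of 7 T cell genes left 19, 1 and 7 cells, so gene comparisons with the irradiated floxed library were not computed. The shares became 0.287%, 0.0147% and 0.0927%, with log2 ratios of -4.28 for irradiated floxed over control and 2.65 for irradiated ∆Hep over floxed. For irradiated ∆Hep over control, 43 genes were then higher and 112 lower. List medians for that pair were -0.26 for circulating-type NK genes, -0.072 for trafficking, -1.49 for activation, -0.30 for NF-κB and -4.46 for interferon-stimulated genes, and Itgb2 (0.42) and Mt1 (-0.47) turned.

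With a minimum of 50 UMIs, 55 genes were higher in irradiated floxed over control, 108 higher and 23 lower in irradiated ∆Hep over floxed, and 114 higher and 399 lower in irradiated ∆Hep over control. A minimum of 10 gave 170 lower in irradiated ∆Hep over floxed. TMM factors gave 67 lower there and 433 lower, with 390 higher, in irradiated ∆Hep over control. Median-of-ratios factors gave 419 higher and 407 lower in the last pair. Thinning to 2000 UMIs gave 54 higher and 149 lower, 42 and 26, and 90 and 343 for the 3 pairs, and Eomes in 41.8%, 30.2% and 33.6% of cells. The proliferation median for irradiated ∆Hep over floxed was 0.83 with the minimum of 50 and 0.28 after thinning, and -0.75 over control after thinning. For irradiated ∆Hep over floxed, Mt1 turned to -2.01 without Scrublet doublets and -0.30 without cells with endothelial UMIs, and Mt2 to -1.91 without Scrublet doublets. ILC1 genes without Eomes were in 21.4% of irradiated floxed cells with 6 ILC1 genes, beside 18.9% of control and 8.22% of irradiated ∆Hep cells. They were in 0% of irradiated floxed cells with Cxcr6 alone or without cells with endothelial UMIs. With 28 cells, genes under about 20 UMIs in all were beyond the depth of the irradiated floxed library.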
